A study of Rattus norvegicus with 21 samples.

Results

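Fos, Fosl1, Jun, Atf3, Egr1 and Myc, growth-response transcription factors, were followed in cultured ventricular myocytes of newborn rats (NRVMs, a primary cell preparation of heart muscle). They were chosen by Ensembl ID, from a list of 7 that also named Junb. Junb was not analysed here, which left 6 genes of the 30560 IDs in each table. RNA sequencing covered 8 groups of NRVMs in 20 libraries. In the overexpression table (3 libraries per group), cells infected with an adenovirus carrying Klf2 (Ad-Klf2) and treated with phenylephrine (PE) stood against cells with a green fluorescent protein virus (Ad-GFP) and PE, and Ad-Klf2 without PE against Ad-GFP without PE. In the knockdown table (2 libraries per group), cells with a small interfering RNA against Klf2 (siKlf2) and PE stood against cells with a negative control (siNeg) and PE, and siKlf2 without PE against siNeg without PE. PE is an α1-adrenergic agonist that makes cultured cardiomyocytes grow, labelled as 100 µM and 36 h. Transfection preceded PE by 12 h, whereas infection followed 12 h of culture with PE or without it and lasted 24 h. All cells were kept in medium with insulin, transferrin and selenium. The control arms therefore also carried a virus or a small interfering RNA, and untouched cells were not among the groups.

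AP-1 is a dimer, typically of a FOS-type and a JUN-type protein, that binds DNA through a basic region and a leucine zipper. Fos, Jun, Egr1 and Myc are classic early response genes: receptors such as the α1-adrenergic receptor activate MAP kinases and serum response factor, and these factors rise within minutes to hours and then fall back. A level after 36 h is thus a late level, after the first peak that such genes are known for. Fosl1 (FRA-1) is a FOS-family partner in AP-1 that is usually induced later than Fos. Atf3 is a related leucine zipper factor induced by many kinds of cell stress. Egr1 is a zinc finger factor induced by growth signals, and Myc drives ribosome production and growth. KLF2 is a zinc finger factor of the Krüppel-like family, best known as a quiescence and flow-response factor of blood vessel lining cells.

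Levels are given in CPM, the count of a gene scaled to a common library size, with library totals corrected by trimmed mean of M-values (TMM) factors. Total counts were 32693762 to 76138723 per library in the overexpression table and 181101876 to 224082309 in the knockdown table. The genes followed here had 58 to 6297 counts per library in the overexpression table and 847 to 25667 in the knockdown table, and all 6 passed the filter on low counts in both. Among counts of 1 to 20, 72.1% to 82.2% were even numbers in the overexpression table and 59.8% to 66.6% in the knockdown table, so a count may not be an independent fragment. The 3 Ad-GFP libraries without PE stood apart, with 539 to 776 genes at 1 to 5 counts. The remaining libraries of the same table had 1728 to 2022 such genes. The 3 Ad-GFP libraries that stood apart enter each Ad-GFP value without PE below. Separate cell preparations are not stated in the labels, so the spread that p-values rest on may be only technical. The levels of Klf2 and of heart muscle markers were not analysed here, because the IDs of the tables could not be paired with symbols. In bulk RNA, fewer cells that express a gene and less RNA per cell cannot be told apart.

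RefSeq promoter windows on the GRCr8 build were held for only 2 of the 6 genes, Egr1 and Fosl1, and both are shown. Each is the 250 bases before the annotated start on the plus strand, chr18:26736828-26737077 for Egr1 and chr1:212183635-212183884 for Fosl1. Capitals mark matches on either strand to the motifs searched.
Egr1: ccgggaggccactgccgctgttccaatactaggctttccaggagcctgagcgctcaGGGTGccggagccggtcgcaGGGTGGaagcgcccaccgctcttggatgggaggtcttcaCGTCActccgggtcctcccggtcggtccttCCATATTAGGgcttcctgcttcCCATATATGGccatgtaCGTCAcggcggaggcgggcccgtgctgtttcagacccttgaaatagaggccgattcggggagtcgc
Fosl1: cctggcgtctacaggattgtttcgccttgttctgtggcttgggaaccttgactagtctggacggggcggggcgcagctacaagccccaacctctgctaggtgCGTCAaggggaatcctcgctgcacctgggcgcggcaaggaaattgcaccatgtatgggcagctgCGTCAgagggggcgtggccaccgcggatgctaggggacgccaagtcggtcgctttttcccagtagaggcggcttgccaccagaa
The Egr1 window held 2 CArG boxes, the element that serum response factor binds, at -105 to -96 and at -83 to -74 from the start, while 1.5% of 33469 windows held any. It also held 1 KLF box, CCACCC, read on the minus strand at -174 to -169, an element present in 26.1% of windows. Its core CACCC, which lies inside the KLF box, had 2 matches there, against 49.2% of windows with any. Both genes had 2 matches to TGACG, the first part of the cyclic AMP response element TGACGTCA, which 18.2% of windows held. The Fosl1 window held neither a CArG box nor a CACCC core. Neither window held the AP-1 element TGANTCA (in 6.34% of windows), the full TGACGTCA (1.59%), the EGR element GCGNGGGCG (4.29%) or the E-box CACGTG (5.59%). These matches are letters in a window, and no binding was measured at them here.

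How control cells responded to PE was asked first, since PE is the growth stimulus of the study. In siNeg cells Fos, Fosl1, Jun, Atf3 and Myc were higher with PE and Egr1 was lower. In Ad-GFP cells Fosl1, Jun and Atf3 were higher, Egr1 was lower, and Fos and Myc were not called. Calls are at an adjusted p under 0.05 in edgeR's quasi-likelihood test with Benjamini-Hochberg adjustment over all tested genes. In siNeg cells 6 of 6 genes were called, 5 higher and 1 lower, while 49.1% of the 18173 tested genes were called (24.8% higher, 24.3% lower). In Ad-GFP cells 4 of 6 were called, 3 higher and 1 lower, beside 34.6% of 16153 tested genes (18.3% higher, 16.3% lower). The median log2 fold change of the 6 genes was 0.74 in siNeg and 0.51 in Ad-GFP, and that of all tested genes was -0.02 in both. The libraries with and without PE did not overlap for 6 of 6 genes in siNeg, as for 73.4% of all tested genes, and for 5 of 6 in Ad-GFP, as for 41.2%. With library totals in place of TMM factors the median of all genes was -0.12 in siNeg and -0.15 in Ad-GFP, and rises made up 33.2% and 30.1% of all calls, against 50.6% and 52.9% with TMM. The calls and directions of the 6 genes held under that scaling in both arms.

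The Klf2 virus was set against its control virus in cells with PE and in cells without it. With PE, Ad-Klf2 cells had less Fos, Jun, Egr1 and Myc than Ad-GFP cells, 2.00 to 4.97 times less, and 10.2 times more Atf3, while Fosl1 was not called. So 5 of 6 genes were called, 1 higher and 4 lower, in a comparison where 65.8% of all tested genes were called (33.6% higher, 32.1% lower). The 6 genes had a median of -1.41 on the log2 scale, and all tested genes one of -0.03. The libraries of these groups did not overlap for 5 of 6 genes, and for 74.1% of all tested genes. Without PE the differences of Fos, Jun, Atf3, Egr1 and Myc were smaller, a contrast tested as an interaction further on, while Fosl1 differed by 0.67 without PE and by 0.04 with it on the log2 scale. In cells without PE Fosl1 and Atf3 were higher in Ad-Klf2, Jun and Myc were lower, and Fos and Egr1 were not called. That is 4 of 6 called, beside 35.1% of all tested genes (20% higher, 15.1% lower), with medians of -0.12 for the 6 genes and 0 for all. Here 4 of 6 genes had libraries that did not overlap, beside 42.5% of all tested genes. The comparison without PE rests on the Ad-GFP libraries that stood apart.

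**Figure D1:**
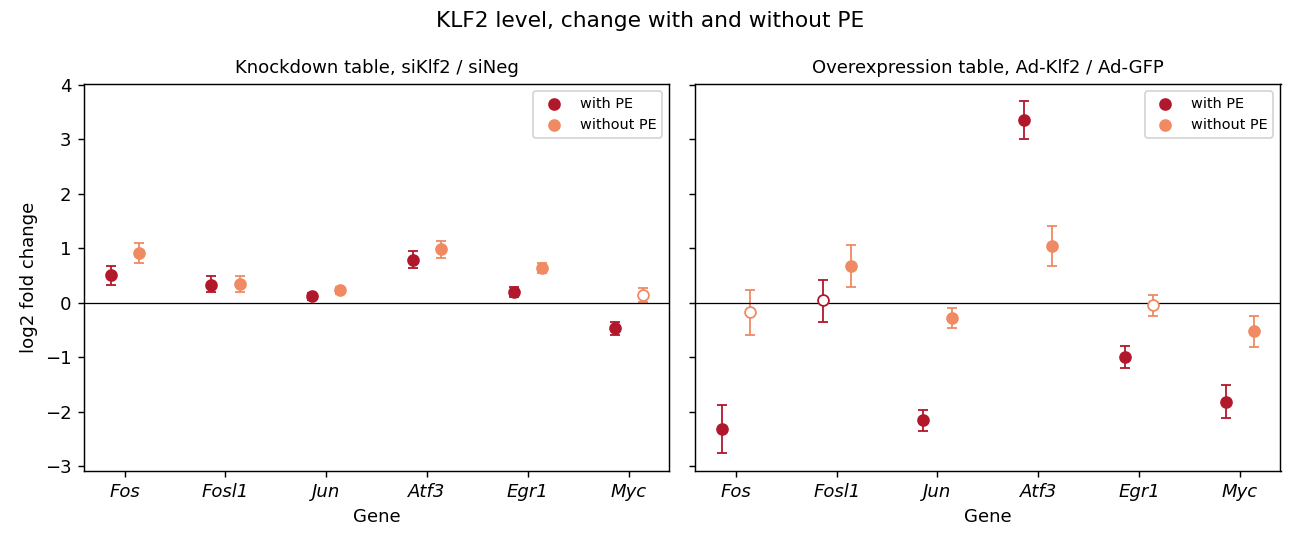
log2 fold changes of Ad-Klf2 over Ad-GFP (right) and siKlf2 over siNeg (left) for each gene, with and without PE; bars are 95% intervals from the edgeR fit, filled points were called at an adjusted p under 0.05 and open points were not. With PE, Atf3 lies at 3.35 and Fos, Jun, Egr1 and Myc lie between -2.31 and -1.0 in Ad-Klf2 cells, while all knockdown values lie between -0.47 and 0.98.

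The siKlf2 treatment was followed in the knockdown table in the same way. In siKlf2 cells with PE, Fos, Fosl1, Jun, Atf3 and Egr1 were higher than in siNeg cells with PE and Myc was lower. All 6 genes were called (5 higher, 1 lower), beside 54.3% of all tested genes (26.1% higher, 28.2% lower). Without PE the same 5 genes were higher in siKlf2 and Myc was not called, beside 53.9% of all tested genes (27.2% higher, 26.8% lower). The medians of the 6 genes were 0.27 with PE and 0.49 without PE, and those of all tested genes were -0.04 and -0.02. With PE, the share of all tested genes that changed at least as much was 30.7% for Fos, 45.2% for Fosl1 and 76.7% for Jun. It was 16.6% for Atf3, 63.6% for Egr1 and 32.7% for Myc. Without PE these shares were 12.3%, 43.3%, 58.3%, 10.7%, 21.3% and 74.4%, in the same order of genes. All 6 genes had libraries that did not overlap in both comparisons, as did 74.6% of all tested genes with PE and 78% without PE. With library totals in place of TMM factors, the median of all genes was -0.30 with PE and -0.22 without PE, and 15.9% and 21.9% of called genes were higher, rather than 48.1% and 50.3%. Under that scaling Jun was lower with PE, at -0.15 (edgeR adjusted p = 0.00335), and Egr1 and Fosl1 lost their calls there, at -0.07 (edgeR adjusted p = 0.189) and 0.07 (edgeR adjusted p = 0.429). Without PE, Fosl1 and Jun lost their calls under it, at 0.14 (edgeR adjusted p = 0.117) and 0.03 (edgeR adjusted p = 0.5). Fos and Atf3 stayed higher and called in both comparisons, and Egr1 in the one without PE, under every alternative tried.

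Fos (ENSRNOG00000008015) encodes the founding FOS protein of AP-1. In the overexpression table Fos lay at 1.93, 1.82 and 1.69 CPM in Ad-Klf2 with PE, against 8.78, 8.08 and 10.2 CPM in Ad-GFP with PE. It lay at 5.7, 6.57 and 5.01 CPM in Ad-Klf2 without PE, against 8.11, 4.86 and 6.69 CPM in Ad-GFP without PE. All 3 Ad-Klf2 libraries with PE were below the other 9 libraries, and the groups without PE overlapped. The log2 fold change between Ad-Klf2 and Ad-GFP was -2.31 with PE (SE 0.21, edgeR adjusted p = 1.36e-08), a level 4.97 times lower, and 13.8% of all tested genes changed at least as much in either direction. Without PE it was -0.18, with a 95% interval of -0.59 to 0.23 (edgeR adjusted p = 0.519), and its sign depended on 1 library, with 0.03 without Ad-GFP replicate 1. Between Fos with and without PE, the Ad-Klf2 cells gave -1.67 (SE 0.21, edgeR adjusted p = 1.3e-06), whereas the Ad-GFP cells gave 0.46 (SE 0.19, edgeR adjusted p = 0.0757). The Ad-GFP response was called without Ad-GFP replicate 1, at 0.63 (edgeR adjusted p = 0.0202), and its adjusted p ranged from 0.0202 to 0.273 over all alternatives.

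In the knockdown table Fos stepped up through the groups. It lay at 15.9 and 14.5 CPM in siKlf2 with PE, against 11.5 and 10 CPM in siNeg with PE, and at 7.86 and 8.34 CPM in siKlf2 without PE, against 4.47 and 4.16 CPM in siNeg without PE. The order of the group means was siNeg, siKlf2, siNeg with PE and siKlf2 with PE, and no neighbours in that order overlapped. The log2 fold change between siKlf2 and siNeg was 0.50 with PE (SE 0.077, edgeR adjusted p = 0.000183) and 0.91 without PE (SE 0.082, edgeR adjusted p = 2.81e-06). PE itself raised Fos by 0.91 on the log2 scale in siKlf2 (SE 0.078, edgeR adjusted p = 2.07e-06) and by 1.32 in siNeg (SE 0.081, edgeR adjusted p = 1.43e-07). That siNeg response had a 95% interval of 1.14 to 1.49, which overlaps the one of Atf3, 1.08 to 1.39.

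Fosl1 (ENSRNOG00000020552) encodes FRA-1, a FOS-family member of AP-1 dimers. It lay at 6.25, 6.02 and 5.61 CPM in Ad-Klf2 with PE, against 6.52, 5.04 and 5.83 CPM in Ad-GFP with PE, and at 4.44, 5.71 and 5.91 CPM in Ad-Klf2 without PE, against 3.29, 3.63 and 3.15 CPM in Ad-GFP without PE. Only the Ad-GFP libraries without PE stood below the others, and the other 3 groups overlapped. Fosl1 was thus higher in Ad-Klf2 without PE, by 0.67 on the log2 scale (SE 0.18, edgeR adjusted p = 0.00799), a call lost with limma voom and quality weights per group (0.64, adjusted p = 0.06). With PE the log2 fold change was 0.04, with a 95% interval of -0.35 to 0.42 (edgeR adjusted p = 0.865). Its sign there was negative without the Ad-GFP group without PE, without Ad-GFP with PE replicate 2, and with library totals alone. PE raised Fosl1 by 0.79 on the log2 scale in Ad-GFP (SE 0.18, edgeR adjusted p = 0.00263), and in Ad-Klf2 the log2 fold change was 0.16, with an interval of -0.23 to 0.54 (edgeR adjusted p = 0.475).

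In the knockdown table Fosl1 lay at 9.25 and 9.32 CPM in siKlf2 with PE, against 7.62 and 7.1 CPM in siNeg with PE. Without PE it lay at 7.78 and 7.4 CPM in siKlf2, against 6.09 and 5.9 CPM in siNeg. The siNeg libraries with PE and the siKlf2 libraries without PE overlapped, and all other neighbours in the order of means were apart. Knockdown raised Fosl1 by 0.33 on the log2 scale with PE (SE 0.064, edgeR adjusted p = 0.000948) and by 0.34 without PE (SE 0.065, edgeR adjusted p = 0.000931), calls that library totals alone removed as given above. PE raised Fosl1 by 0.29 on the log2 scale in siKlf2 (SE 0.064, edgeR adjusted p = 0.00279) and by 0.30 in siNeg (SE 0.064, edgeR adjusted p = 0.00253), and the siKlf2 call was lost with library totals alone (0.12, edgeR adjusted p = 0.19).

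**Figure D2:**
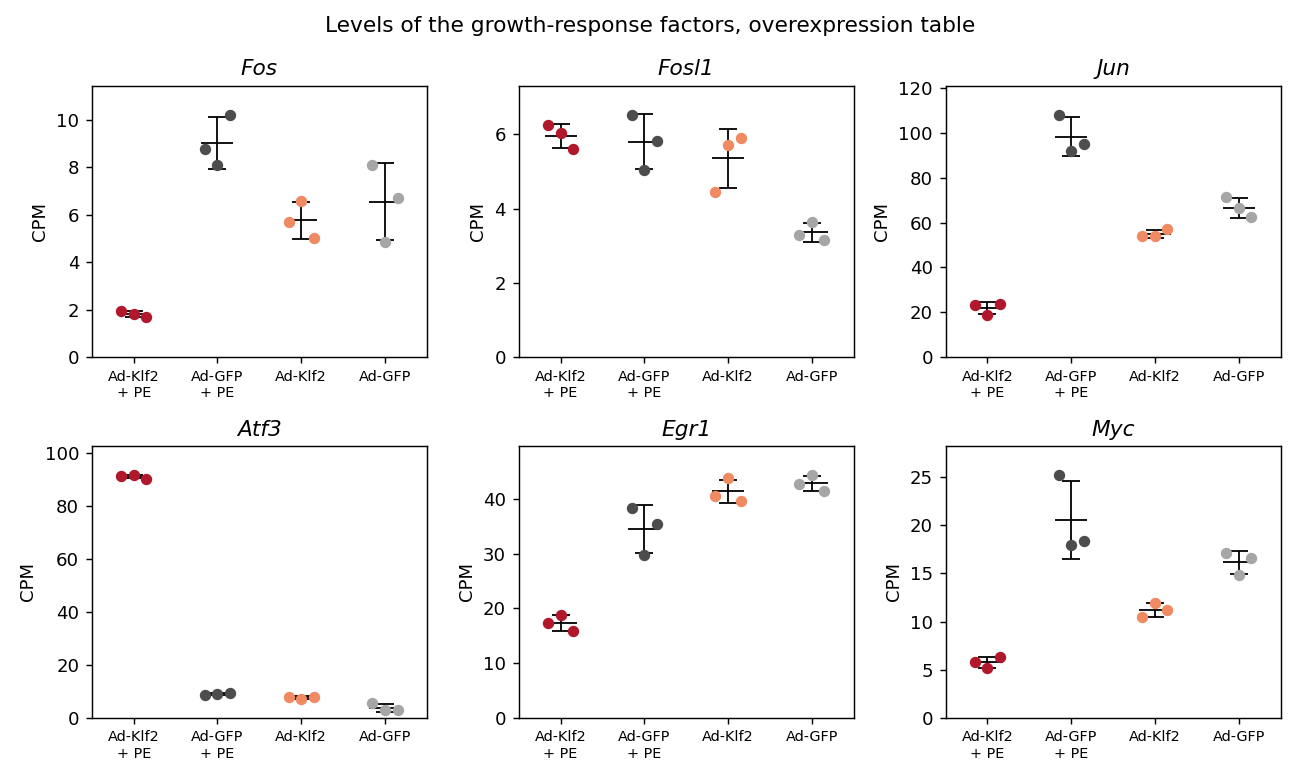
Levels in CPM (vertical axis, from 0) of the 6 genes in the 3 libraries of each group of the overexpression table; points are libraries, and black lines are the group mean and 1 SD. In Ad-Klf2 with PE the Fos, Jun, Egr1 and Myc points lie below all other groups, the Atf3 points lie near 91.2, and the Fosl1 points overlap those of Ad-GFP with PE.

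Jun (ENSRNOG00000026293) encodes the main partner of FOS proteins in AP-1. It lay at 23.3, 18.7 and 23.5 CPM in Ad-Klf2 with PE, against 108, 91.8 and 95.1 CPM in Ad-GFP with PE. In cells without PE it was at 54, 53.8 and 57.1 CPM in Ad-Klf2, against 71.2, 66.6 and 62.3 CPM in Ad-GFP. The 4 groups did not overlap, with Ad-Klf2 with PE lowest and Ad-GFP with PE highest. Between Ad-Klf2 and Ad-GFP the log2 fold change was -2.16 with PE (SE 0.09, edgeR adjusted p = 1.25e-13), a level 4.48 times lower. Without PE it was -0.28 (SE 0.085, edgeR adjusted p = 0.0156), a call that was lost without Ad-GFP replicate 1 (-0.21, edgeR adjusted p = 0.0883), without Ad-Klf2 replicate 1 (-0.24, edgeR adjusted p = 0.0823) and without Ad-Klf2 replicate 2 (-0.24, edgeR adjusted p = 0.08). PE lowered Jun by 1.32 on the log2 scale in Ad-Klf2 (log2 fold change -1.32, SE 0.089, edgeR adjusted p = 2.36e-10) and raised it by 0.56 in Ad-GFP (SE 0.085, edgeR adjusted p = 4.09e-05).

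After knockdown Jun moved little. It lay at 117 and 117 CPM in siKlf2 with PE, against 108 and 108 CPM in siNeg with PE, and at 86.2 and 84.4 CPM in siKlf2 without PE, against 71.5 and 74.3 CPM in siNeg without PE. The groups were apart, in the same order as for Fos. The log2 fold changes between siKlf2 and siNeg were 0.12 with PE (SE 0.03, edgeR adjusted p = 0.00591), negative with library totals alone as given above, and 0.23 without PE (SE 0.03, edgeR adjusted p = 6.2e-05). PE raised Jun by 0.46 on the log2 scale in siKlf2 (SE 0.03, edgeR adjusted p = 2.31e-07) and by 0.57 in siNeg (SE 0.03, edgeR adjusted p = 4.41e-08).

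Atf3 (ENSRNOG00000003745), the stress-induced leucine zipper factor, stood at the other end. It lay at 91.4, 91.7 and 90.5 CPM in Ad-Klf2 with PE, against 8.75, 8.97 and 9.17 CPM in Ad-GFP with PE. Its level without PE was 7.85, 7.19 and 7.93 CPM in Ad-Klf2, against 5.44, 2.97 and 2.8 CPM in Ad-GFP. The Ad-Klf2 libraries with PE were far above all others, and the other 3 groups were close but did not overlap. Set against Ad-GFP, Ad-Klf2 cells had a log2 fold change of 3.35 with PE (SE 0.16, edgeR adjusted p = 1.15e-12) and 1.04 without PE (SE 0.17, edgeR adjusted p = 8.33e-05). With PE, 7.5% of all tested genes changed at least as much in either direction, so the rise was large but not singular in that comparison. PE raised Atf3 by 3.57 on the log2 scale in Ad-Klf2 (SE 0.16, edgeR adjusted p = 8.84e-13), a fold of 11.9 and rank 303 from the top of 16153 genes, and by 1.27 in Ad-GFP (SE 0.17, edgeR adjusted p = 1.13e-05).

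Knockdown of Klf2 also raised Atf3, so the gene was called higher in siKlf2 and in Ad-Klf2 cells alike. It lay at 34.5 and 37.2 CPM in siKlf2 with PE, against 22.4 and 19.1 CPM in siNeg with PE. Without PE it lay at 17.7 and 17.1 CPM in siKlf2, against 8.74 and 8.92 CPM in siNeg. No groups overlapped, and the order was again siNeg, siKlf2, siNeg with PE and siKlf2 with PE. The log2 fold changes between siKlf2 and siNeg were 0.79 with PE (SE 0.067, edgeR adjusted p = 1.75e-06) and 0.98 without PE (SE 0.07, edgeR adjusted p = 4.76e-07). PE raised Atf3 by 1.04 on the log2 scale in siKlf2 (SE 0.068, edgeR adjusted p = 2.18e-07) and by 1.23 in siNeg (SE 0.07, edgeR adjusted p = 7.67e-08).

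Egr1 (ENSRNOG00000019422), the zinc finger factor whose promoter window holds both CArG boxes shown above, was lower with PE in all 4 arms. It lay at 17.4, 18.7 and 15.9 CPM in Ad-Klf2 with PE, against 38.4, 29.8 and 35.4 CPM in Ad-GFP with PE. Without PE it lay at 40.6, 43.8 and 39.7 CPM in Ad-Klf2, against 42.8, 44.3 and 41.5 CPM in Ad-GFP. Only the groups without PE overlapped. The log2 fold change between Ad-Klf2 and Ad-GFP was -1.0 with PE (SE 0.096, edgeR adjusted p = 2.64e-08), a level 2.00 times lower, and 37.2% of all tested genes changed at least as much. Without PE it was -0.05, with a 95% interval of -0.25 to 0.14 (edgeR adjusted p = 0.712), and it was 0.01 without Ad-GFP replicate 2 or without Ad-Klf2 replicate 3. PE lowered Egr1 by 1.26 on the log2 scale in Ad-Klf2 (log2 fold change -1.26, SE 0.095, edgeR adjusted p = 1.28e-09) and by 0.31 in Ad-GFP (log2 fold change -0.31, SE 0.093, edgeR adjusted p = 0.0138). The Ad-GFP call was lost without Ad-GFP with PE replicate 2 (-0.22, edgeR adjusted p = 0.0988).

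In the knockdown table the siKlf2 cells without PE held the most Egr1. It lay at 34.1 and 33.5 CPM in siKlf2 with PE, against 29.8 and 29.2 CPM in siNeg with PE, and at 52 and 56.1 CPM in siKlf2 without PE, against 34.8 and 34.8 CPM in siNeg without PE. The ranges were apart, although siKlf2 with PE and siNeg without PE differed little. Knockdown raised Egr1 by 0.20 on the log2 scale with PE (SE 0.041, edgeR adjusted p = 0.00184), a sign that library totals alone turned as given above, and by 0.64 without PE (SE 0.041, edgeR adjusted p = 1.87e-07). PE lowered Egr1 by 0.68 on the log2 scale in siKlf2 (log2 fold change -0.68, SE 0.041, edgeR adjusted p = 1.18e-07) and by 0.24 in siNeg (log2 fold change -0.24, SE 0.041, edgeR adjusted p = 0.000489).

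**Figure D3:**
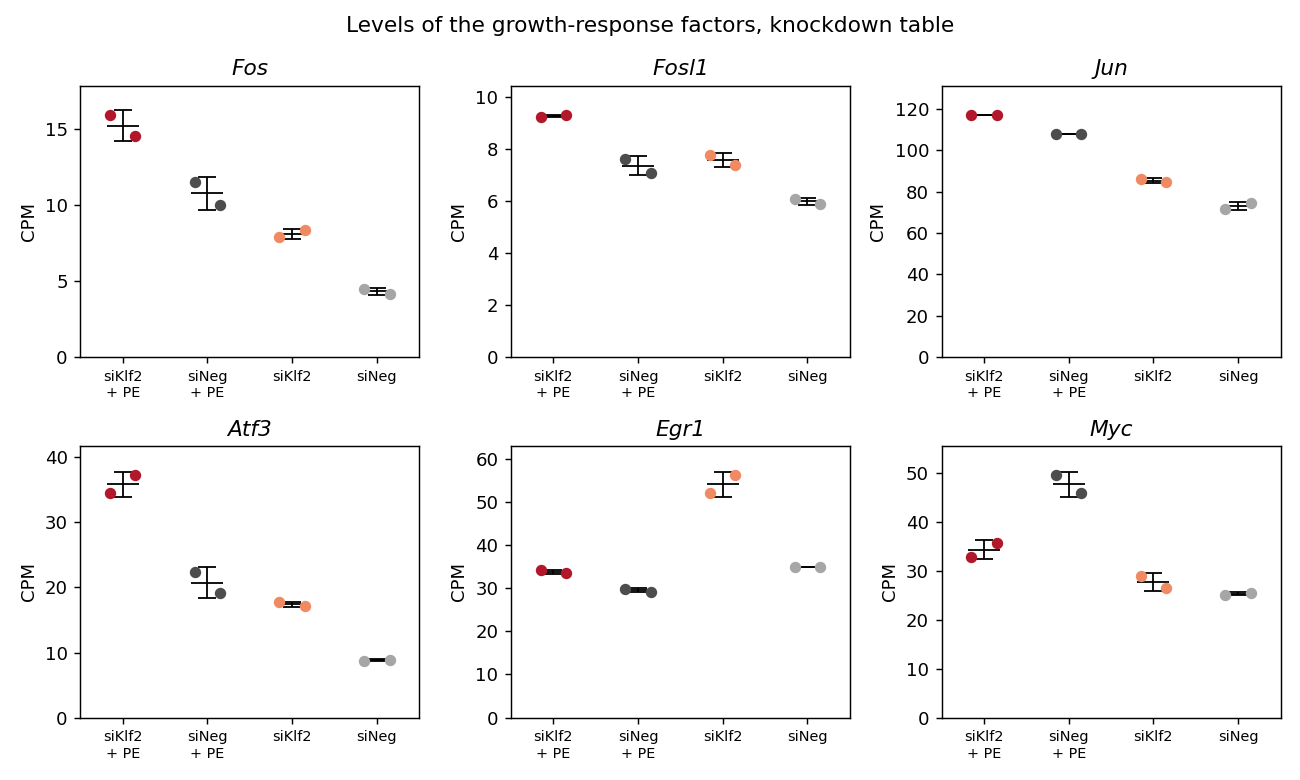
Levels in CPM (vertical axis, from 0) of the 6 genes in the 2 libraries of each group of the knockdown table; points are libraries, and black lines are the group mean and 1 SD. Fos, Fosl1, Jun and Atf3 are highest in siKlf2 with PE, Egr1 in siKlf2 without PE (52 and 56.1 CPM) and Myc in siNeg with PE (49.5 and 45.9 CPM).

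Myc (ENSRNOG00000004500), a driver of ribosome production and cell growth, was lower in KLF2-manipulated cells with PE in both tables. It lay at 5.8, 5.2 and 6.33 CPM in Ad-Klf2 with PE, against 25.2, 18 and 18.4 CPM in Ad-GFP with PE. Without PE it lay at 10.5, 11.9 and 11.2 CPM in Ad-Klf2, against 17.1, 14.8 and 16.6 CPM in Ad-GFP. The groups did not overlap, although the highest Ad-GFP library without PE came close to the lowest with PE. The log2 fold change between Ad-Klf2 and Ad-GFP was -1.82 with PE (SE 0.14, edgeR adjusted p = 1.34e-09), a level 3.54 times lower, and -0.53 without PE (SE 0.14, edgeR adjusted p = 0.00485). PE lowered Myc by 0.95 on the log2 scale in Ad-Klf2 (log2 fold change -0.95, SE 0.14, edgeR adjusted p = 1.07e-05). In Ad-GFP the log2 fold change was 0.35, with a 95% interval of 0.06 to 0.63 (edgeR adjusted p = 0.0546). It was called with counts halved (0.34, edgeR adjusted p = 0.0458), and without replicate 2 (0.43, edgeR adjusted p = 0.0385) or replicate 3 (0.41, edgeR adjusted p = 0.0478) of Ad-GFP with PE, and it was 0.16 at the lowest.

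After knockdown Myc lay at 32.9 and 35.7 CPM in siKlf2 with PE, against 49.5 and 45.9 CPM in siNeg with PE. Cells without PE had 29 and 26.5 CPM in siKlf2, against 25.1 and 25.5 CPM in siNeg. The siNeg libraries with PE were the highest, and the 4 groups were apart. Between siKlf2 and siNeg the log2 fold change was -0.47 with PE (SE 0.055, edgeR adjusted p = 2.26e-05), the only fall among the 6 genes after knockdown in either comparison. Without PE it was 0.13 (SE 0.056, edgeR adjusted p = 0.0695), and it was called under 10 alternatives, at an adjusted p as low as 0.0219, while library totals alone turned its sign to -0.06. PE raised Myc by 0.31 on the log2 scale in siKlf2 (SE 0.056, edgeR adjusted p = 0.000793), a call lost with library totals alone (0.14, edgeR adjusted p = 0.0899), and by 0.91 in siNeg (SE 0.056, edgeR adjusted p = 1.35e-07).

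Differences in the PE response were tested as an interaction, the PE response in Ad-Klf2 or siKlf2 cells minus that in the control arm. In Ad-Klf2 cells PE lowered Fos, Jun, Egr1 and Myc and raised Atf3, 5 of 6 genes called beside 61.3% of all tested genes (31.6% higher, 29.6% lower). Libraries with and without PE did not overlap for 5 of the 6, and for 71.7% of all tested genes. Rises made up 39.2% of all calls with library totals alone and 51.7% with TMM, and the median of all genes was -0.21 and -0.01. The interaction was called for 5 of 6 genes, 4 lower and 1 higher, beside 49.1% of all tested genes (25.1% higher, 24% lower). It was -2.13 for Fos (SE 0.29, edgeR adjusted p = 4.63e-06), -1.88 for Jun (SE 0.12, edgeR adjusted p = 3.28e-10) and -1.29 for Myc (SE 0.19, edgeR adjusted p = 1.81e-05). These genes had fallen with PE in Ad-Klf2, with values above 0 in Ad-GFP. For Egr1, lower with PE in both arms, it was -0.95 (SE 0.13, edgeR adjusted p = 7.58e-06). For Atf3, higher with PE in both arms, it was 2.31 (SE 0.23, edgeR adjusted p = 1.12e-07). Fosl1 had -0.63 (SE 0.26, edgeR adjusted p = 0.0529), which was called without Ad-GFP replicate 2, Ad-Klf2 replicate 1 or Ad-GFP with PE replicate 2, and with library totals alone (-0.69, edgeR adjusted p = 0.0353).

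**Figure D4:**
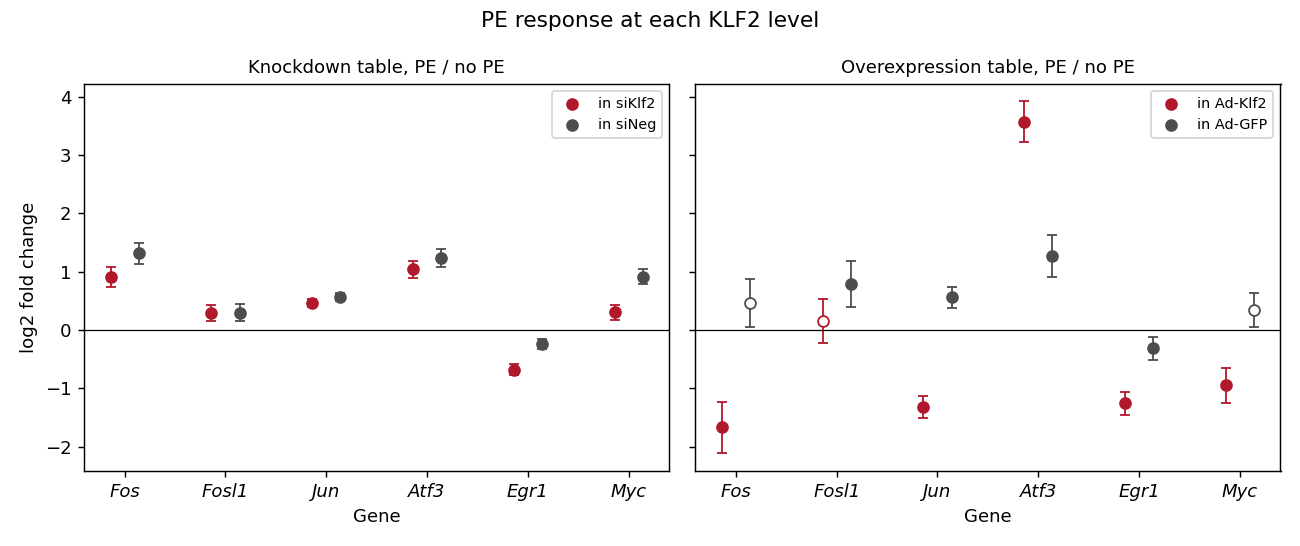
log2 fold changes of PE over no PE for each gene, in siKlf2 and siNeg (left) and in Ad-Klf2 and Ad-GFP (right); bars are 95% intervals from the edgeR fit, and open points were not called. On the right Fos, Jun and Myc lie at -1.67, -1.32 and -0.95 in Ad-Klf2 and at 0.46, 0.56 and 0.35 in Ad-GFP, while on the left both arms lie on the same side of 0 for every gene.

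In siKlf2 cells all 6 genes responded to PE in the direction seen in siNeg cells, with 6 of 6 called (5 higher, 1 lower) beside 48.1% of all tested genes (24.4% higher, 23.7% lower). None of the 6 overlapped between siKlf2 with and without PE, as for 74.3% of all tested genes. Rises made up 23.6% of all calls for PE in siKlf2 with library totals alone, against 50.8% with TMM, and 24.2% against 49.1% for the interaction. The interaction was called for 3 of 6 genes, all with a lower value in siKlf2, beside 14.4% of all tested genes (7.08% higher, 7.35% lower). It was -0.61 for Myc (SE 0.079, edgeR adjusted p = 0.000473), -0.44 for Egr1 (SE 0.058, edgeR adjusted p = 0.000505) and -0.41 for Fos (SE 0.11, edgeR adjusted p = 0.0334). Fos was not called when any 1 of 6 libraries was left out, both of siNeg, both of siKlf2, siNeg with PE replicate 1 and siKlf2 with PE replicate 2, with adjusted p up to 0.135. Jun (-0.11, edgeR adjusted p = 0.119), Atf3 (-0.19, edgeR adjusted p = 0.231) and Fosl1 (0.00, with a 95% interval of -0.20 to 0.20, edgeR adjusted p = 0.984) were not called with all libraries and TMM. Jun was called with library totals alone (-0.18, edgeR adjusted p = 0.0349). Atf3 ranged from -0.3 to -0.08 when each library was left out in turn. In simulated data false calls in the knockdown table exceeded the adjusted p, so calls near the threshold may be less certain. Only siKlf2 against siNeg without PE was simulated there, so how far this holds for the Fos interaction was not tested. The interaction in a table and its comparisons with and without PE share all their libraries, so these values are not separate observations.

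Likeness of pattern was measured as the Pearson r of log2 CPM, centred within each table, over the 20 RNA libraries and 10182 other genes with at least 5 CPM. It is a description, because libraries of a group share their treatment and the Ad-Klf2 group with PE spans most of the range. Jun and Myc had r = 0.951, which made Jun the gene at rank 10 in likeness to Myc, and Jun and Fos had r = 0.925. Egr1 was less like them, at 0.643 with Jun, 0.602 with Fos and 0.54 with Myc. Over the 20 libraries together Atf3 had a negative r with these genes, with -0.832 for Egr1 and -0.68 for Jun, and had 0.673 with Fosl1. It did not run opposite throughout. In the knockdown table its group means had the same order as those of Fos and Jun, and PE raised both Atf3 and Jun in both control arms. Fosl1 and Fos had r = -0.00422. The closest gene to Jun was ENSRNOG00000007883 (r = 0.992) and the closest to Atf3 was ENSRNOG00000003846 (r = 0.99), neither of which is paired with a name in the sources used here.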

How the data were processed

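Per the submitters' processing notes, reads were trimmed with Trim Galore, aligned with STAR and counted with featureCounts on mRatBN7.2, with no versions given. The authors deposited raw counts per Ensembl gene ID in 2 tables, used here as deposited. The genes and lists were chosen with earlier results of these data known. Each table was fitted with edgeR 4.0.16 in R 4.3.3, with filterByExpr (minimum count 10, minimum total 15), TMM factors and 1 coefficient per group over all 4 groups of a table, which left 16153 genes in the overexpression table and 18173 in the knockdown table. P-values were two-sided and adjusted over all tested genes. On simulated data the fit recovered the fold changes put in, as a median over the changed genes. In the knockdown table, however, more of the calls were false than the adjusted p allows. In the overexpression table the false share lay below that level in some runs and above it in others. Calls near the threshold may be less certain than their adjusted p, in the knockdown table above all. The simulation changed few genes, and none by as little as several of the knockdown values above. It covered only siKlf2 against siNeg and Ad-Klf2 against Ad-GFP without PE. How far it holds for the other comparisons was not tested. Alternatives also used DESeq2 1.42.0 and limma 3.58.1. Named genes were the 6 members and, by r over 20 libraries, those most like them. IDs matched 0 symbols in the reference, so the lists of pathway genes and cell type markers were not run. The peak list was not used here, because its positions are on mRatBN7.2 and those of the gene starts are on GRCr8. Motifs were searched in the 250 bases before each start, not in the 50 after it, with Python 3.11.15 and pandas 2.3.3. Figures were drawn with matplotlib 3.10.9. Replicate numbers shared between groups showed no sign of marking pairs (correlations of deviations -0.0203 to 0.0446 in the overexpression table and -0.0432 to 0.0403 in the knockdown table). This check cannot exclude shared preparations.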

Additional observations from a re-analysis of the deposited data

Results flagged for a closer look

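The PE response differed between the KLF2-manipulated and the control arm for the genes below, by the interaction test of edgeR. In the overexpression table the differences, Ad-Klf2 minus Ad-GFP on the log2 scale, were -2.13 for Fos, -1.88 for Jun, 2.31 for Atf3, -0.95 for Egr1 and -1.29 for Myc. All 5 include the Ad-GFP libraries without PE that stood apart, and the part of those libraries in the differences was not tested beyond leaving each out in turn. In the knockdown table the differences, siKlf2 minus siNeg, were -0.41 for Fos, -0.44 for Egr1 and -0.61 for Myc. Leaving out each library in turn gave -0.5 to -0.3 for Fos, -0.48 to -0.38 for Egr1 and -0.67 to -0.53 for Myc. The call for Fos there depended on which library was left out, as given above. In the overexpression table it gave -2.32 to -1.97 for Fos, -1.95 to -1.82 for Jun and 1.94 to 2.47 for Atf3. For Egr1 it gave -1.06 to -0.88, and for Myc -1.4 to -1.13. The gap of an outermost library was not tested in these groups of 2 or 3 libraries.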

How the results depend on the processing

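For 38 of the 60 gene by comparison results, direction and call were the same under every alternative tried. Library totals in place of TMM factors left 48 of 60 the same. The number of genes called in siKlf2 against siNeg without PE was 3 under that scaling, not 5. It turned signs for Myc in that comparison (-0.06), for Jun (-0.15) and Egr1 (-0.07) in siKlf2 against siNeg with PE, and for Fosl1 in Ad-Klf2 against Ad-GFP with PE (-0.06) and with PE in Ad-Klf2 (-0.04). Leaving out the Ad-GFP group without PE, chosen after the data were seen, gave -0.03 for Fosl1 in Ad-Klf2 against Ad-GFP with PE and the same calls otherwise. RLE size factors and DESeq2 gave 0.00 for the Fosl1 knockdown interaction, with the sign turned. When each library was left out in turn, results that changed sign ranged from -0.05 to 0.05 (Fosl1, knockdown interaction), -0.32 to 0.03 (Fos) and -0.07 to 0.01 (Egr1) in Ad-Klf2 against Ad-GFP without PE, and -0.03 to 0.15 (Fosl1) in Ad-Klf2 against Ad-GFP with PE. Of the 6 genes, 2 to 4 had a called knockdown interaction, 3 to 4 were called in Ad-Klf2 against Ad-GFP without PE, 4 to 5 for PE in Ad-GFP, 5 to 6 for the interaction with Ad-Klf2 and 5 to 6 in siKlf2 against siNeg without PE. Over all genes, 1553 to 3312 had a called knockdown interaction, against 2622 with all libraries. With the replicate block, all 60 results kept their direction and call, with 5 genes called in Ad-Klf2 against Ad-GFP with PE and 3 in the knockdown interaction. A knockdown group reduced to a single library had its spread assumed equal to that of the other groups. The cause of these changes was not tested. Other windows and thresholds for peaks were not run, because peaks were not used here. The Ad-Klf2 libraries with PE held the lowest Fos counts, down to 58.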

Other observations

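Among the 6 genes, the spread between libraries of a group was widest for Atf3 in Ad-GFP without PE, with a coefficient of variation of 39.5%, where replicate 1 lay at 5.44 CPM beside 2.97 and 2.8 CPM. It was 0.701% for the same gene in Ad-Klf2 with PE. Without Ad-GFP replicate 1 the Atf3 difference between Ad-Klf2 and Ad-GFP without PE was the largest of its alternatives, at 1.43 on the log2 scale, against 1.04 with all libraries.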
